A study of Mus musculus with 8 samples.

Results

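Expression of 9 genes of the red cell lineage was followed in mouse embryonic hearts: the embryonic globins Hba-x, Hbb-bh1 and Hbb-y, the alpha-type globins Hba-a1 and Hba-a2, the adult beta-type globins Hbb-b1, Hbb-bs and Hbb-bt, and Alas2. They were taken by symbol from a table of gene-level FPKM (fragments scaled to transcript length and to the mapped fragments of the library), in which they hold 11 of 24930 entries and 9 of 24385 features left after 1 entry was kept per symbol. All 9 passed the filter of a mean of at least 1 FPKM, which 10018 genes passed. Bulk RNA sequencing was done on hearts at embryonic day 8.5 (E8.5) and 9.5 (E9.5) from 2 genotypes, with 2 libraries in each of the 4 groups and 8 libraries in all. All embryos were on the C57BL/6 strain. The mutants are labelled Mesp1Cre/+; Dgcr8-/- and are called cKO here: Cre, driven by the early mesoderm gene Mesp1, acted on 2 loxP alleles of Dgcr8, which encodes the RNA-binding partner of the nuclear enzyme that cuts primary microRNAs. The controls are labelled wild type and are called WT, although by the study's methods they carried the same loxP alleles and had no Cre, so the genotypes also differ by the Cre allele at Mesp1. Both genotypes carried a membrane reporter at Rosa26. Mesp1-derived cells include the heart tube and also mesoderm of the yolk sac, where the first red cells form, so that in this model Cre is not restricted to the heart. The sources used here do not give whether embryos were pooled or whether blood was flushed from the hearts.

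A mouse embryo makes its first red cells, the primitive erythroid cells, in the yolk sac, and they enter the circulation as the heart begins to beat. Their hemoglobin pairs alpha-type chains (the embryonic zeta chain of Hba-x and the alpha chain of Hba-a1 and Hba-a2) with embryonic beta-type chains. Primitive cells are known for a switch as they mature, from Hbb-bh1 to Hbb-y among the beta-type genes and from Hba-x to the Hba-a genes among the alpha-type genes, while Hbb-b1, Hbb-bs and Hbb-bt are the genes of definitive and adult red cells. Alas2 is the erythroid form of the enzyme that makes the first committed precursor of heme. Bulk heart RNA holds the RNA of whatever blood the dissected heart contained, and fewer cells of a type and less RNA per cell cannot be told apart in it.

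The genes lie in 2 clusters and on the X chromosome. In the coordinates of the table, which fit GRCm38, Hbb-bt (103812524 to 103813923), Hbb-bs (103826523 to 103827928), Hbb-bh1 (103841638 to 103843162) and Hbb-y (103851754 to 103853207) follow each other on chromosome 7, and the entry Hbb-b1 (103826532 to 103827929) lies on the same bases as Hbb-bs. On chromosome 11, Hba-x spans 32276600 to 32278115, and both Hba-a1 and Hba-a2 are listed at each of the 2 Hba-a loci, which start at 32283672 and 32296489. Alas2 spans 150547417 to 150570622 on the X chromosome. These are whole gene spans, with exons, introns and both ends of the transcript.

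RefSeq's promoter table for GRCm38.p6 matched 7 of the 9 genes. Hbb-bh1 and Hbb-b1 had no entry. The stretch just before the start site is given for the genes that the stage comparison turns on and for their alpha-type counterparts, written 5′ to 3′ on the gene's own strand. Capitals mark the words CACCC and, likewise, CCAAT on either strand. They also mark a GATA word, meaning GATA with A or T before it and A or G after it, on either strand. A TATA word is TATAA, or the overlapping ATAAA, on the gene's strand in the last 50 bases.
Hbb-y, chr7:103853208-103853327, minus strand: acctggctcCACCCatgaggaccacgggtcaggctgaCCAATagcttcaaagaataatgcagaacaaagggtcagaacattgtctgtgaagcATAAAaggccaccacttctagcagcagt
Hbb-bs, chr7:103827929-103828048, minus strand: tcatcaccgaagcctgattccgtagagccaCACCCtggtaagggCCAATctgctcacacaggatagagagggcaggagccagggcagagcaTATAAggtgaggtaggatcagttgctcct
Hbb-bt, chr7:103813924-103814043, minus strand: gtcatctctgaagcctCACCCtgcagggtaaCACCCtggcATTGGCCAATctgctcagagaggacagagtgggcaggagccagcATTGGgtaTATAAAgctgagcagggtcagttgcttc
Hba-x, chr11:32276480-32276599, plus strand: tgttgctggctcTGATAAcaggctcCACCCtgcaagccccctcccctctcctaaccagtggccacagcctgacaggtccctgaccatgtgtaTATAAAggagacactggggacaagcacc
Hba-a1, chr11:32283552-32283671, plus strand: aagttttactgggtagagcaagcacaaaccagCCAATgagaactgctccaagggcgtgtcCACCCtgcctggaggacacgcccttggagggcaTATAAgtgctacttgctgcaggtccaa
Alas2, chrX:150547297-150547416, plus strand: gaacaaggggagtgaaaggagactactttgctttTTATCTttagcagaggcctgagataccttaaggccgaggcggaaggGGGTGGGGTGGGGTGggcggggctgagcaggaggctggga
Over the 250 bases before the start, CACCC was found in 7 of the 7 promoters and in 52.0% of all 32851 promoters of the table. CCAAT was in 5 of 7 against 33.8%, a GATA word in 6 of 7 against 26.5%, and a TATA word in 6 of 7 against 8.7%. Among the beta-type genes, Hbb-y had 1 CACCC, 111 bases before its start, Hbb-bs had 1 at 90 bases, and Hbb-bt had 3 at 140, 104 and 89 bases. Hbb-bt was the 1 promoter of the 7 with no GATA word in the window. Alas2 held CACCC 3 times on the other strand and was the 1 promoter with no TATA word. The promoters of Hba-a1 and Hba-a2 shared an unbroken run of 247 of 250 bases. A match is a description of the letters only.

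The coding sequences show which of these genes the reads can tell apart. The first 90 coding bases of 3 GENCODE transcripts are given here, with capitals at each base that differs from Hbb-bh1.
Hbb-bh1: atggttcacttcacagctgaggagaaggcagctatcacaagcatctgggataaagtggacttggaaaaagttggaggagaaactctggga
Hbb-y: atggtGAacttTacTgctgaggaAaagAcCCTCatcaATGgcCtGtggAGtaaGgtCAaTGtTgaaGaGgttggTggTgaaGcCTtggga
Hbb-b1: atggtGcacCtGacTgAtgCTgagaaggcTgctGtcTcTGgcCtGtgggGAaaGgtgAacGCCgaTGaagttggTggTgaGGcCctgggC
In that annotation the names Hbb-b1 and Hbb-b2 go to the transcripts that carry the start of RefSeq's Hbb-bs and Hbb-bt, and those 2 differed at 1 of 444 coding bases. Of the 50-base windows of the Hbb-b1 transcript, 52.3% occurred unchanged in that of Hbb-b2. Hba-a1 and Hba-a2 differed at 1 of 429 coding bases, and 67.5% of the windows of Hba-a1 occurred in Hba-a2. Hbb-y and Hbb-bh1 were 76.4% identical, each was 73.9% to 74.3% identical to the adult pair, and Hba-x was 62.0% identical to Hba-a1. None of the 50-base windows of these embryonic genes occurred in another of the transcripts compared. The split between Hba-a1 and Hba-a2, and among Hbb-b1, Hbb-bs and Hbb-bt, is therefore uncertain.

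Dgcr8, the targeted gene, was at 7.10 and 8.60 FPKM in WT hearts against 1.64 and 4.67 in cKO hearts at E8.5, and at 3.49 and 3.23 against 1.15 and 1.77 a day later. The genotypes did not overlap at either stage. These are whole-gene values, which also count exons outside the deleted part. Summed FPKM over loci of at least 300 bp lay between 745560 and 952621, of which the 11 entries made 1.79% to 5.67%. Absolute depth is unknown, and relative depth read from the lowest values differed by up to 1.45-fold. Cardiomyocyte markers summed to 21818 to 67472 FPKM in the 8 libraries, with none of the 8 at 0 in a group. The library E8.5 cKO replicate 2 stood apart from its group: its 8 decidual stroma markers summed to 6861 FPKM, against 509 to 2203 in the 7 others, and its adult beta-type globins were the highest of the series. Many of the calls, changes and correlations that rest on it are given with and without it, but not all. With 2 libraries a group, an exact permutation test cannot go below p = 0.33, and the p-values given are from limma fitted to all 10018 genes and adjusted by the method of Benjamini and Hochberg.

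Hbb-bh1, the beta-type globin that primitive cells make first, was the highest of the 9 genes in all 4 E8.5 libraries when Hba-a1 is taken by its first entry. With both entries summed, Hba-a1 was higher in E8.5 cKO replicate 2, at 13404 FPKM. WT hearts held 4996 and 15695 FPKM at E8.5 against 3516 and 7450.0 at E9.5. The cKO hearts held 21959.8 and 7338 FPKM against 14628 and 7083. Replicates differed by 2.07-fold to 3.14-fold, and no 2 groups compared were apart.

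Hbb-y, the beta-type globin of maturing primitive cells, went from 473 and 2167 FPKM at E8.5 to 7958 and 14822 at E9.5 in WT hearts. In cKO hearts it went from 3033 and 168 FPKM to 14681 and 14092. All 4 E9.5 libraries lay above all 4 E8.5 libraries, and Hbb-y was the highest of the 9 genes in each of them. The 2 E8.5 cKO libraries differed by 18.1-fold, with replicate 2 the lowest of the series.

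Hba-x, the embryonic alpha-type globin, was at 2273 and 5879.6 FPKM in WT hearts at E8.5 and at 2948 and 7279 at E9.5. The cKO values were 10438 and 2213, then 10245 and 7906. The 2 E9.5 cKO libraries lay above both E9.5 WT libraries, while every other pair of groups compared overlapped.

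**Figure D1:**
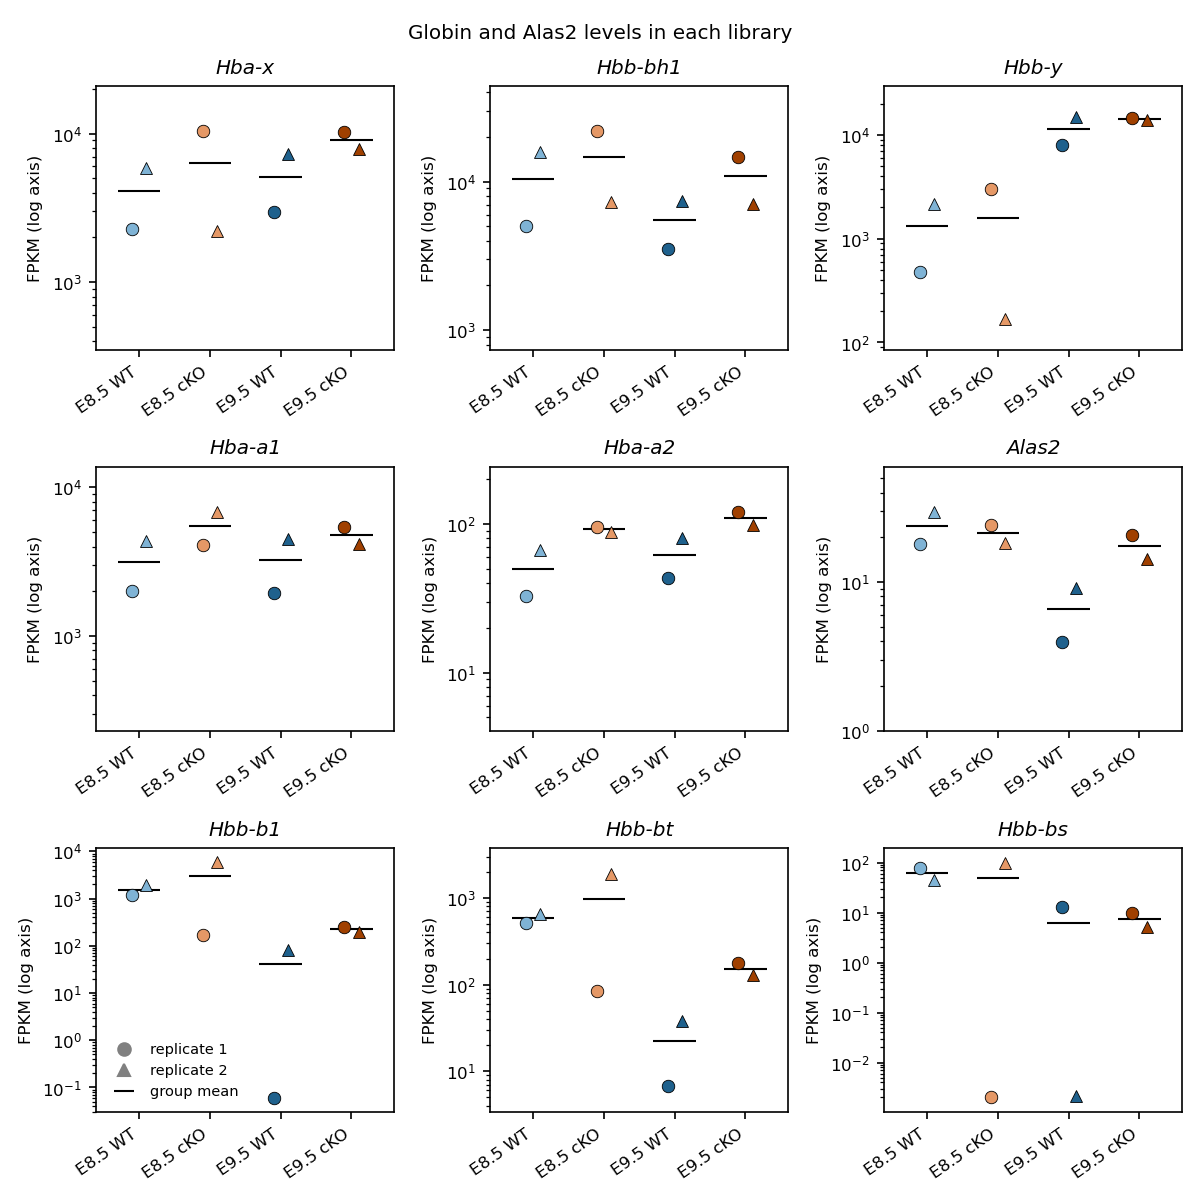
Level of each gene in each library, in FPKM on a logarithmic axis, by group; circles are replicate 1, triangles replicate 2 and bars the group mean. All E9.5 values of Hbb-y lie above its E8.5 values, and Hbb-b1 reaches down to 0.0596 and Hbb-bs to 0.00202 FPKM in single libraries.

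The entry of Hba-a1 with the higher mean was at 2002 and 4329 FPKM in WT hearts at E8.5 and 1935 and 4528 at E9.5, and in cKO hearts at 4099 and 6862, then 5383 and 4137. All 4 pairs of groups overlapped. Its entry at the other Hba-a locus ranged from 1718 to 6542 FPKM. Hba-a2, which encodes the same kind of alpha chain, also has an entry at each locus. Its entry with the higher mean lies at the locus of the first Hba-a1 entry. It was far lower than that entry, with 32.8 and 66.5 FPKM in WT hearts at E8.5 and 43.1 and 80.4 at E9.5. The cKO hearts had 94.8 and 88.8, then 121 and 98.4. This entry made 1.28% to 2.32% of the 2 first entries together. As both lie at 1 locus, the share is a division between overlapping entries and does not compare the 2 genes. The second Hba-a2 entry, at RefSeq's Hba-a2 position beside the second Hba-a1 entry, was at 29.5 and 38.6 FPKM in WT and 32.4 and 43.4 in cKO at E8.5. At E9.5 it was at 16.9 and 38.4 in WT and 56.7 and 41.2 in cKO. With all 4 entries summed, the Hba-a genes were at 3841 and 8239 FPKM in WT hearts at E8.5 and 3712 and 8698 at E9.5, and at 6918 and 13536, then 10221 and 7929, in cKO hearts.

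The adult beta-type globins were at high levels at E8.5 and at low levels at E9.5 in WT hearts. Hbb-b1 in WT was at 1181 and 1925 FPKM, then 0.0596 and 80.7, and in cKO at 173 and 5907, then 247 and 201. Hbb-bt in WT was at 517 and 647 FPKM, then 6.71 and 38.0, and in cKO at 84.3 and 1886, then 179 and 128. For both genes the order of the groups was the same, with E9.5 WT below all other libraries and E8.5 cKO replicate 2 above them.

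Hbb-bs was at 78.5 and 44.9 FPKM in WT hearts at E8.5 and 12.6 and 0.00216 at E9.5, and in cKO hearts at 0.00202 and 97.6, then 9.89 and 5.02. It shares its bases with Hbb-b1, and the division between the 2 entries was unstable: Hbb-bs held 99.5% of their sum in E9.5 WT replicate 1 and 0.00267% in replicate 2, against 0.00117% to 6.23% in the 6 other libraries. The 2 entries summed to 1259 and 1970.3 FPKM in WT at E8.5 and 12.7 and 80.7 at E9.5, and in cKO to 173 and 6004, then 257 and 206. The very low value of Hbb-b1 in E9.5 WT replicate 1 is thus 12.7 FPKM once its locus is taken as a whole. Hbb-bt, at a locus of its own, made 23.9% to 41.0% of the 3 adult genes in all 8 libraries.

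Alas2 was at 17.9 and 29.7 FPKM in WT hearts at E8.5 and 3.94 and 9.18 at E9.5, and in cKO hearts at 24.4 and 18.4, then 20.8 and 14.3. The 2 E9.5 WT libraries were the lowest of the series. For each 1000 FPKM of the 3 embryonic globins, Alas2 had 1.25 to 2.32 FPKM at E8.5 and 0.273 to 0.311 at E9.5 in WT, and 0.688 to 1.90, then 0.491 to 0.527, in cKO.

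The balance among the beta-type genes changed with stage in both genotypes. The ratio of Hbb-y to Hbb-bh1 in WT hearts was 0.0946 and 0.138 at E8.5 and 2.26 and 1.99 at E9.5. In cKO hearts it was 0.138 and 0.0229, then 1.0 and 1.99. On the log2 scale (of FPKM + 1) the mean ratio gained 4.21 over the day in WT and 4.65 in cKO, with no overlap of the stages. Without E8.5 cKO replicate 2 the cKO difference was 3.35. A ratio within a library does not depend on how the libraries were scaled. At E8.5 the genotypes overlapped. At E9.5 both cKO values lay below both WT values, but the difference of -0.59 was within the range of the cKO replicates, and cKO replicate 2 and WT replicate 2 were both at 1.99.

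Hbb-y made 6.53% and 10.6% of the beta-type FPKM of WT hearts at E8.5 and 69.2% and 66.2% at E9.5, and 12.0% and 1.09%, then 49.4% and 65.5%, of that of cKO hearts. The 3 adult genes together made 24.5% and 12.8% in WT at E8.5 and 0.169% and 0.530% at E9.5, and in cKO 1.02% and 51.2%, then 1.46% and 1.55%. The adult share was thus lower on the later day in WT and higher in cKO than in WT at E9.5, without overlap in either case. In E8.5 cKO the 2 libraries held the lowest and the highest adult share of the 4 E8.5 libraries. As log2 ratios of adult to embryonic beta-type FPKM, the difference was -6.14 between the stages in WT (-5.34 without E9.5 WT replicate 1 and -6.94 without E9.5 WT replicate 2) and 2.31 between cKO and WT at E9.5. The genotype difference was 1.51 without E9.5 WT replicate 1 and 3.11 without E9.5 WT replicate 2.

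**Figure D2:**
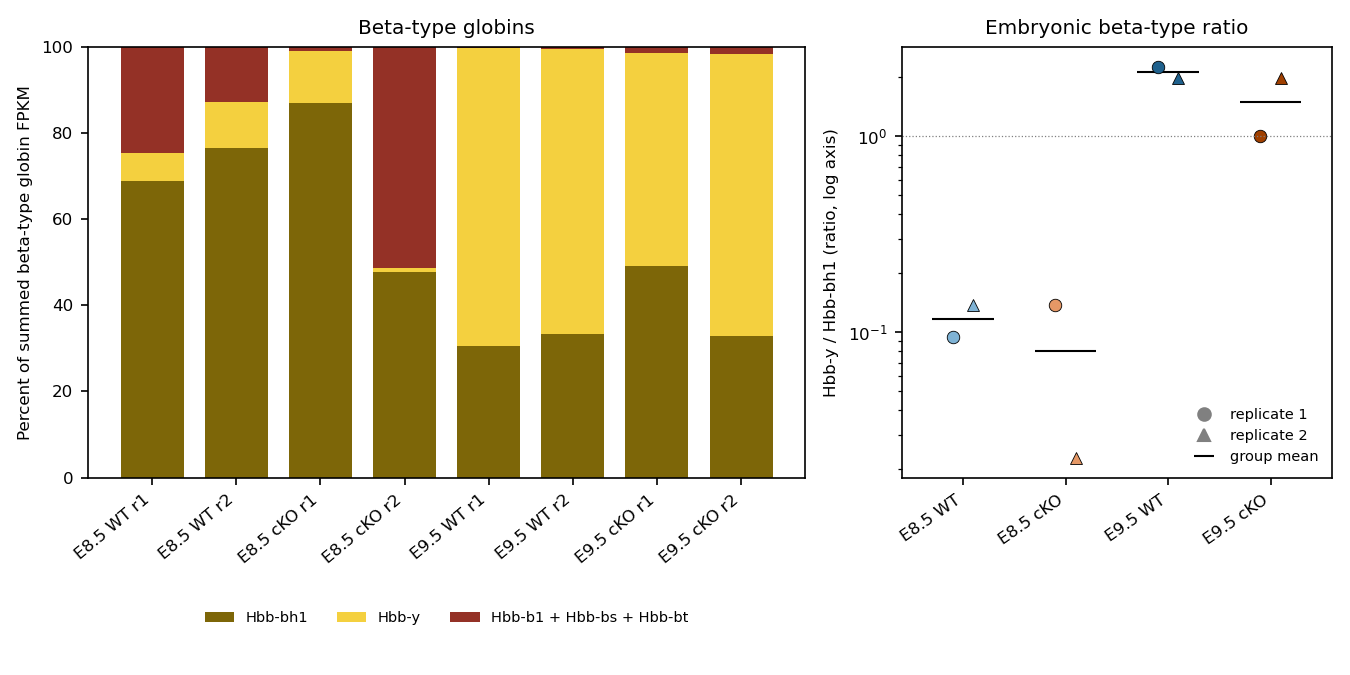
Left, share of each beta-type globin in the summed beta-type FPKM of each library, in percent, with r1 and r2 for the replicates; right, ratio of Hbb-y to Hbb-bh1 on a logarithmic axis, with bars at group means. Hbb-y makes 1.09% to 12.0% of the beta-type FPKM at E8.5 and 49.4% to 69.2% at E9.5.

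Among the alpha-type genes, the share of Hba-x did not fall with stage in WT. Hba-x made 52.8% and 57.2% of the alpha-type FPKM (first entries) in WT at E8.5 and 59.9% and 61.2% at E9.5. In cKO it made 71.3% and 24.1%, then 65.1% in both libraries. The log2 ratio of Hba-a1 plus Hba-a2 to Hba-x differed between the stages by -0.33 in WT, and between cKO and WT by -0.28 at E9.5, both without overlap, and both opposite to the direction of a switch from Hba-x to the Hba-a genes. In cKO the stages overlapped: the difference was -1.07 with E8.5 cKO replicate 2, where the ratio was above 1, and 0.42 without it. With the 4 Hba-a entries summed, Hba-x made 60.1% and 14.1% in the E8.5 cKO libraries. Summed alpha-type over summed beta-type FPKM ranged from 0.429 to 0.595 by first entries and from 0.580 to 1.02 by all 4 entries, with E8.5 cKO replicate 2 the highest both ways.

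Between E8.5 and E9.5 in WT hearts, Hbb-y rose and Hbb-b1, Hbb-bt and Alas2 fell, and no call was made for Hba-x, Hbb-bh1, Hba-a1, Hba-a2 or Hbb-bs. A call here means an adjusted p under 0.05 and a change of at least 1.5-fold on the log2(FPKM + 1) scale, which understates the change of low genes. The 1 of 9 called higher stands beside 1.4% of all genes, and the 3 of 9 called lower beside 46.7%, so most of the table moved in the second direction. Hbb-y rose by 3.42 on the log2 scale (SE 1.22, adjusted p = 0.0486), from a mean of 1320.1 ± 1198 to 11390.1 ± 4854 FPKM (SD, n = 2 each). Hbb-b1 fell by 7.34 (SE 2.05, adjusted p = 0.0248), Hbb-bt fell by 5.06 (SE 1.29, adjusted p = 0.0201) and Alas2 fell by 1.77 (SE 0.42, adjusted p = 0.0171). Hbb-bs had -4.03 (adjusted p = 0.110). With Hbb-b1 and Hbb-bs summed the locus fell by 5.56 (SE 1.46, adjusted p = 0.0215), and the 3 adult genes summed fell by 5.45 (SE 1.42, adjusted p = 0.0210). Hbb-y was the 1 gene of the 9 whose libraries lay wholly higher at E9.5 (5.43% of all genes did), and Hbb-b1, Hbb-bs, Hbb-bt and Alas2 lay wholly lower (80.1% of all genes did).

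The median of all genes itself fell by 0.84 on the log2 scale. Relative to that median, Hbb-y was 4.26 higher, Hbb-b1 -6.51, Hbb-bt -4.23 and Alas2 -0.93. When the libraries were scaled to equal medians of gene ratios, all 4 directions remained and none of the 4 calls did. Hbb-y was then at 4.42 (adjusted p = 0.0898), Hbb-b1 at -6.51 (0.151), Hbb-bt at -4.09 (0.150) and Alas2 at -0.85 (0.296), with 321 genes of the table then called higher and 69 lower, against 140 and 4683 before. Leaving out either E8.5 WT library or E9.5 WT replicate 1 left 0 of the 4 calls, and leaving out E9.5 WT replicate 2 left 3. Hbb-y also lost its WT call without either E9.5 cKO library (adjusted p = 0.0809 in both cases), with which it shares the estimate of spread. Hbb-y was at 2.32 without E8.5 WT replicate 1 and at 4.52 without E8.5 WT replicate 2. Without E9.5 WT replicate 1, Hbb-b1 was at -4.21 and Hbb-bt at -3.89 on the log2 scale, and without E9.5 WT replicate 2 Hbb-b1 was at -10.48.

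In cKO hearts Hbb-y again rose between the days, and it was the 1 call. It rose by 4.33 (SE 1.22, adjusted p = 0.0350), from 1601 ± 2026 to 14387 ± 416 FPKM (SD, n = 2 each), beside 2.05% of all genes called higher. None of the 9 was called lower, against 28.5% of all genes. Hbb-b1 had -2.18 (adjusted p = 0.416), Hbb-bt -1.40 (adjusted p = 0.410) and Alas2 -0.28 (adjusted p = 0.615), and 1 of the 9 had an unadjusted p under 0.05, as 47.0% of all genes did. Hbb-y and Hba-a2 lay wholly higher at E9.5, where 7.05% of all genes did, and none of the 9 lay wholly lower, where 62.7% did. For Hba-a2 this holds for its first entry only. The second overlapped, at 32.4 and 43.4 FPKM, then 56.7 and 41.2, as did the 4 Hba-a entries summed. The median of all genes fell by 0.64, relative to which Hbb-y was 4.96 higher. Without E8.5 cKO replicate 2 the change of Hbb-y was 2.25 (adjusted p = 0.0859), and without either E9.5 cKO library the call was also lost. With median-ratio scaling it was at 5.09 (adjusted p = 0.0531). Without E8.5 cKO replicate 2 the adult genes turned, Hbb-b1 to 0.36 and Hbb-bt to 0.84, whereas without E8.5 cKO replicate 1 Hbb-bt was called lower, at -3.63 (adjusted p = 0.0238). The adult genes in E8.5 cKO are thus a description of 2 unlike libraries.

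At E9.5 the fitted change of each of the 9 genes was above 0 for cKO against WT, and none was called. The fitted changes ran from 0.41 for Hbb-y to 4.59 for Hbb-b1, with a median of 0.99 against -0.07 over all genes, and 0.18% of all genes were called. Alas2 had the smallest adjusted p, 0.179, at 1.37 on the log2 scale (SE 0.42, 95% interval 0.40 to 2.33), from 6.56 ± 3.70 FPKM in WT to 17.6 ± 4.64 in cKO (SD, n = 2 each). Hbb-bt was at 3.13 (SE 1.29, 95% interval 0.15 to 6.12, adjusted p = 0.298) and Hbb-b1 at 4.59 (SE 2.05, 95% interval -0.14 to 9.31, adjusted p = 0.328). Without E9.5 WT replicate 1 these were 0.84 for Alas2, 1.97 for Hbb-bt and 1.45 for Hbb-b1, and without E9.5 WT replicate 2 they were 1.89, 4.30 and 7.72. With Hbb-b1 and Hbb-bs summed the difference was 2.79 (adjusted p = 0.402), and with the 3 adult genes summed it was 2.95 (adjusted p = 0.364). Hba-x had 0.96 (adjusted p = 0.617), Hbb-bh1 0.99 (adjusted p = 0.564) and Hba-a1 0.67 (adjusted p = 0.585).

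Alas2 and Hbb-bt were the 2 of 9 with an unadjusted p under 0.05, which 15.7% of all genes had. For Hba-x, Hba-a2, Hbb-b1, Hbb-bt and Alas2, 5 of the 9, both cKO libraries lay above both WT libraries, as did 21% of all genes, while 0 of 9 lay wholly below, as did 31.1% of all genes. Within the E9.5 libraries much of the spread came from WT, where replicate 1 was below replicate 2 for every gene but Hbb-bs. The SE and p-values of limma also use the E8.5 libraries. For Hbb-bt and Hbb-y the replicates differed most in E8.5 cKO, by 22.4-fold and 18.1-fold, against 5.66-fold and 1.86-fold in E9.5 WT. Without E9.5 WT replicate 1 the sign of Hbb-y turned (-0.043), without E9.5 WT replicate 2 that of Hbb-bs did (-0.75), and no call was made without any 1 library.

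**Figure D3:**
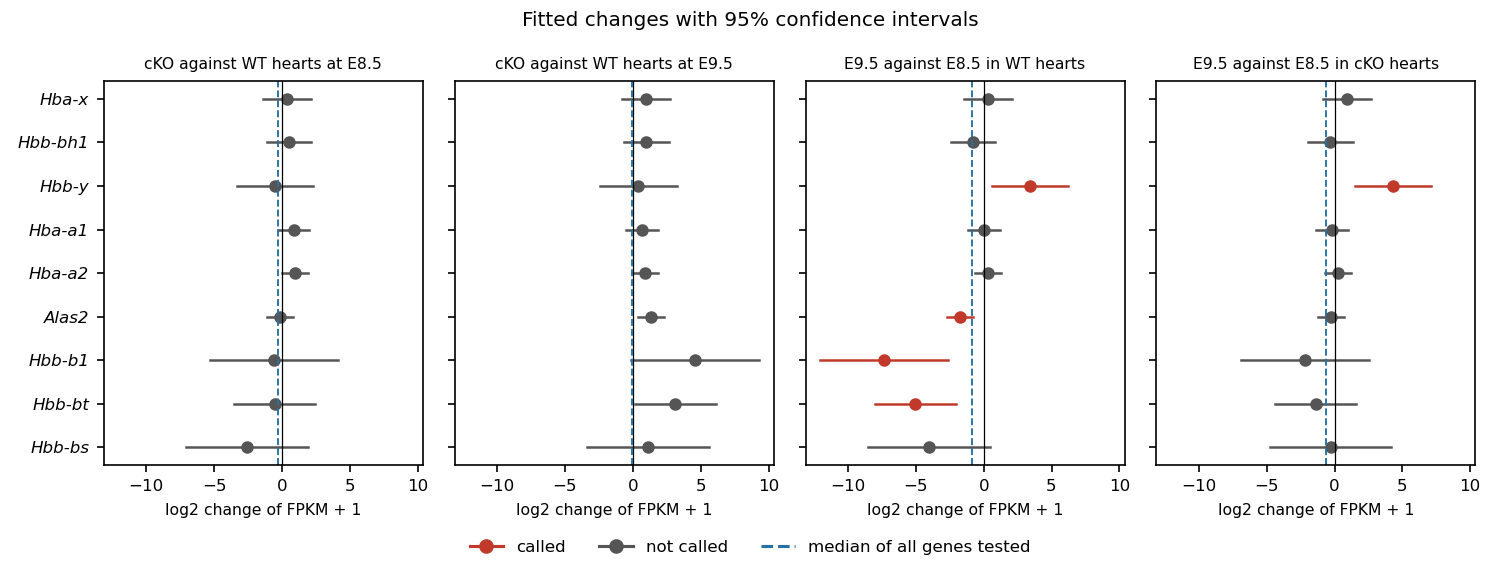
Fitted log2 change of FPKM + 1 for each gene in 4 comparisons, with 95% confidence intervals; red marks a call, grey no call, and the dashed line is the median of all genes tested. Hbb-y lies to the right in both stage comparisons, and all 9 points lie right of 0 for cKO against WT at E9.5, where none is called.

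At E8.5 no gene of the 9 was called between cKO and WT, and 0.00998% of all genes were. The changes ran from -2.60 for Hbb-bs to 0.96 for Hba-a2, 4 of 9 were above 0, and the median was -0.12 against -0.28 over all genes. Hba-a2, by its first entry, was the 1 gene with an unadjusted p under 0.05 (adjusted p = 0.590), which 7.81% of all genes had. By that entry it was also the 1 whose cKO libraries lay wholly above WT, as 2.54% of all genes did. Wholly below lay 0 of 9, against 40.1% of all genes. The second Hba-a2 entry overlapped, at 29.5 and 38.6 FPKM in WT against 32.4 and 43.4 in cKO, as did the 4 Hba-a entries summed. The direction of 7 of the 9 depended on which E8.5 cKO library was kept, Hba-a1 and Hba-a2 being the others: without replicate 2, Hbb-y was at 1.58 and Hbb-b1 at -3.12, and without replicate 1 they were at -2.58 and 1.97. Between these libraries the embryonic and the adult genes thus ran in opposite directions.

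The cKO effect was compared between the stages with an interaction term, which shares its libraries with the comparisons above. None of the 9 passed, and 0.0399% of all genes did. The largest values were those of the adult genes: 5.16 for Hbb-b1 (SE 2.89, adjusted p = 0.748), 3.73 for Hbb-bs (SE 2.75, adjusted p = 0.795) and 3.66 for Hbb-bt (SE 1.83, adjusted p = 0.731). Without E8.5 cKO replicate 2 they were 7.70, 7.05 and 5.90, and without replicate 1 of that group 2.62, 0.42 and 1.43. Without E9.5 WT replicate 1 Hbb-b1 was at 2.03, and without E9.5 WT replicate 2 at 8.30. Alas2, at 1.48 (SE 0.59, adjusted p = 0.693), was the 1 of 9 with an unadjusted p under 0.05, which 7.18% of all genes had.

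Neutrophil, macrophage and decidual markers were, like the adult beta-type genes, lower at E9.5 in WT, but their replicate order did not always follow, and other lists rose. The 3 genes summed to 1776 and 2617 FPKM in WT at E8.5 and 19.4 and 119 at E9.5, and in cKO to 257 and 7890.3, then 435 and 333. The 8 neutrophil markers had sums of 308 and 69.6 FPKM in WT at E8.5, the opposite order to the globins, and 0.275 to 1.29 at E9.5, and in cKO of 4.01 to 203, then 0 to 0.853. S100a8 alone made almost all of the E8.5 sums, and Camp, Ngp and Elane, which define granulocytes more closely, were at 0 in every group. The 8 macrophage markers, at 14.0 and 7.54 FPKM, also ran in the opposite order in WT, and were at 2.05 and 11.7 in cKO at E8.5, and at 0.722 to 1.31 in the 4 libraries of E9.5. The 8 decidual stroma markers, which mark maternal tissue around the embryo, had 1169 to 2203 FPKM in WT at E8.5 and 509 to 715 at E9.5, and 762 to 6861, then 673 to 693, in cKO. Cryab alone, which the heart also expresses, made 506 to 704 of the FPKM at E9.5 and 748 in E8.5 cKO replicate 1. At E8.5 the other 7 decidual markers had sums of 523 and 1233 FPKM in WT and 14.0 and 5406 in cKO, against 3.37 to 11.2 at E9.5, with Prl3c1 at 0 in all E9.5 libraries.

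In all 3 lists, E8.5 cKO replicate 2 was above replicate 1, as it was for the adult globins. At E9.5 the decidual sums of the 2 genotypes overlapped, where the adult globin sums did not. The 8 uterine natural killer cell markers were at 343 FPKM in E8.5 WT replicate 1 and at 0.532 to 2.22 in the other 7 libraries. The 10 yolk sac endoderm markers were at 992 and 3468 FPKM in WT and 8647 and 2543 in cKO at E8.5. Over the 4 libraries this was the same order as that of the 3 embryonic globins together, at 7742 and 23742, then 35431 and 9719. The 8 cardiomyocyte markers had that order too, at 21818 and 36941 FPKM in WT and 48137 and 34581 in cKO. At E9.5 the yolk sac markers were at 4738 to 7043 FPKM. The 8 megakaryocyte and platelet markers were at 4.79 to 8.64 FPKM at E8.5 and 9.48 to 68.8 at E9.5. Pf4 alone made 6.80 to 58.8 FPKM of the E9.5 sums. Itga2b went the other way in WT, from 4.28 and 5.93 FPKM at E8.5 to 2.15 and 1.24 at E9.5. In WT the sums of the yolk sac, megakaryocyte and cardiomyocyte lists were thus all higher at E9.5, without overlap, the last from 21818 and 36941 FPKM at E8.5. The sums of some lists moved with genotype at E9.5, in the direction of the 9 genes and without overlap. Single markers in them did not all follow. The 8 endothelial markers were at 118 and 110.4 FPKM in WT against 205 and 173 in cKO, and at 125 to 234 at E8.5. Of these, Tek went the other way, at 5.50 and 6.94 in WT against 4.45 and 3.51 in cKO at E9.5. Cdh5, Kdr and Emcn overlapped. The 8 cardiomyocyte markers were at 48150.4 and 47077 FPKM in WT against 65208 and 67472 in cKO. Actc1 and Myl7 made most of each sum. Myh6 went the other way, at 916 and 777 in WT against 424 and 567 in cKO, and Tnnt2, Myh7 and Ttn overlapped. The macrophage sums were 1.04 and 0.722 FPKM in WT, opposite in order to the adult globins there, against 1.31 and 1.09 in cKO. These are values near the floor, of which Cd68 alone made 0.532 and 0.286 in WT and 0.843 and 0.725 in cKO. C1qc was at 0 in both groups, and C1qa was higher in WT, at 0.0736 and 0.0567 against 0 and 0. The part of these lists in the globin results was not tested.

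**Figure D4:**
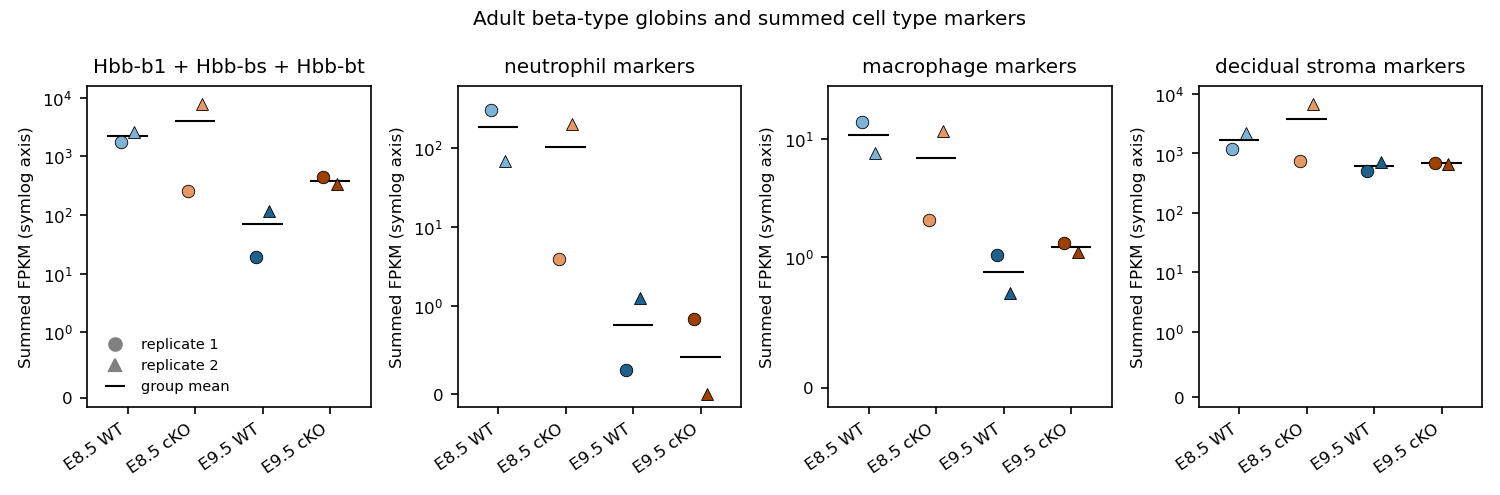
Summed FPKM of the 3 adult beta-type globins and of 3 marker lists in each library, on an axis that is linear below 1 and logarithmic above it; circles are replicate 1, triangles replicate 2 and bars the group mean. In E8.5 cKO, replicate 2 lies above replicate 1 in all 4 panels.

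Other genes of the red cell program were read from lists, of which 32 genes in 4 lists passed the filter. Between the stages in WT, 21 of the 32 fell and none rose, with a median of -1.34 against -0.84 over all genes. In cKO 8 fell and none rose, with a median of -0.77 against -0.64. These counts stand beside the 46.7% and 28.5% of all genes called lower, and they too rest on a scale on which most genes fell. Without either E8.5 WT library or E9.5 WT replicate 1, 0 of the 32 were called in WT by limma, where 28 to 184 of all genes were called lower in place of 4683, and without E9.5 WT replicate 2 10 of the 32 were. The number of the 32 below 0 stayed at 30 to 32 in these fits. Leaving out either E9.5 cKO library left 0 of the 8 calls in cKO, and with E8.5 cKO replicate 1 left out 4 fell and 2 rose. With E8.5 cKO replicate 2 left out, 11 of the 32 fell in cKO, beside 23.5% of all genes, and 4 of these were among the 8: Alad, Uros, Slc25a38 and Bpgm. Gata1, at -2.05, and Klf1, at -2.18, were then called in cKO. Cpox, Lmo2, Epb41 and Car2 no longer were, though their changes stayed close. Cpox went from -0.91 to -0.95, Lmo2 from -1.05 to -0.94, Epb41 from -0.85 to -0.77 and Car2 from -1.60 to -1.49.

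Of the heme synthesis and mitochondrial import genes, 8 of 10 fell in WT and 4 of 10 in cKO. Uros, an enzyme midway in heme synthesis, fell by 1.91 in WT and fell by 1.33 in cKO. Slc25a38, a mitochondrial glycine carrier, fell by 1.27 in WT and fell by 1.86 in cKO. Cpox and Urod, which act later in the pathway, fell by 1.53 and fell by 1.37 in WT. Of the erythroid transcription factors, 5 of the 6 tested fell in WT and 1 in cKO. The cKO changes depended on E8.5 cKO replicate 2. Without it Gata1 went from -1.05 to -2.05, Klf1 from -1.20 to -2.18, Nfe2 from -0.73 to -1.58 and Gfi1b from -0.35 to -1.30. Lmo2 went from -1.05 to -0.94, and Ldb1 from -0.52 to -0.53. Klf1, the activator of adult beta-globin genes, fell by 2.57 in WT, and Gata1, the main red cell factor of the GATA family, fell by 2.37. Nfe2 fell by 1.73 and Lmo2 fell by 1.33 in WT, and Lmo2 was also the 1 called in cKO, where it fell by 1.05. Of 8 membrane and skeleton genes, 3 fell in WT and 1 in cKO. Icam4 fell by 1.31 and Epb41, a skeleton protein, fell by 0.98 in WT, and Epb41 fell by 0.85 in cKO. Of 8 other erythroid genes, 5 fell in WT and 2 in cKO, among them the carbonic anhydrase gene Car2, which fell by 2.60 in WT and fell by 1.60 in cKO. Bpgm, whose enzyme makes the bisphosphoglycerate that tunes oxygen release, fell by 1.53 in WT and fell by 1.62 in cKO. Trim10 fell by 1.94 in WT.

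None of the 32 was called between cKO and WT at either stage, nor in the interaction. At E9.5, 21 of 32 were above 0 with a median of 0.47 against -0.07 over all genes. By list the medians were -0.01 for heme synthesis, 0.83 for the transcription factors, 0.53 for membrane genes and 0.38 for the others. The changes ran from -0.67 for Bpgm to 1.59 for Rhd, with Gata1 at 1.09 (adjusted p = 0.432), Klf1 at 0.83 (adjusted p = 0.608) and Slc25a38 at -0.47 (adjusted p = 0.554). At E8.5, 7 of 32 were above 0 with a median of -0.23 against -0.28. Without E8.5 cKO replicate 2, 19 of 32 were above 0 with a median of 0.15 against -0.24, and again none was called. Of the other globin genes of the 2 clusters, Hbq1b, an alpha-type gene of the theta group, was the 1 that passed the filter; it was not called in any comparison and had 0.89 at E9.5 for cKO against WT (adjusted p = 0.589).

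Over the 8 libraries, on log2(FPKM + 1), the members fell into patterns of their own. Hbb-b1 and Hbb-bt had a Pearson r of 0.97, Hba-a1 and Hba-a2 of 0.87, and Alas2 had 0.84 with Hbb-b1, 0.78 with Hbb-bt and 0.78 with Hbb-bh1, whereas Hbb-bh1 and Hbb-y had 0.10 and Hbb-y and Hbb-bt -0.73. Of all other genes, Cpt1b (r = 0.953), Ccnd3, Tbxa2r, Klhl30 and Afap1l1 (r = 0.921) had the pattern most like the mean of Hba-x, Hbb-bh1 and Hbb-y. Ripk2 (r = 0.968), Sat1, Guca2b, App and Cd47 (r = 0.954) were the most like the summed adult beta-type genes. Over the 7 libraries without E8.5 cKO replicate 2 the r of Hbb-b1 and Hbb-bt was 0.97, that of Hbb-y and Hbb-bt -0.56, and that of Alas2 with Hbb-b1 0.90. Some pairs shifted further: Hba-x with Hba-a1 went from 0.40 to 0.93, Hba-x with Hba-a2 from 0.72 to 0.98 and Hbb-y with Hba-a1 from -0.049 to 0.53. Cpt1b then had 0.946 and Ripk2 0.965. The points share libraries, depth and the 4 groups, and the genes named are the extremes of 10018.

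By level per length, the order of the group means at E9.5 in WT was Hbb-y (11390.1 FPKM), Hbb-bh1 (5483), Hba-x (5114), Hba-a1 (3231), Hba-a2 (61.7), Hbb-b1 (40.4), Hbb-bt (22.3), Alas2 (6.56) and Hbb-bs (6.31). The neighbours from Hbb-bh1 to Hba-a1 and from Hba-a2 to Hbb-bs overlapped in their replicates. In E8.5 WT the order was Hbb-bh1 (10346), Hba-x (4076), Hba-a1 (3166), Hbb-b1 (1553), Hbb-y (1320.1), Hbb-bt (582), Hbb-bs (61.7), Hba-a2 (49.6) and Alas2 (23.8), in which the neighbours from Hbb-bh1 to Hba-a1, from Hbb-b1 to Hbb-bt, and Hbb-bs with Hba-a2 overlapped. Hba-a1 and Hba-a2 stand in both orders by their first entry. With both its entries summed, Hba-a1 was at 5956 FPKM in E8.5 WT, above Hba-x, and at 6116 in E9.5 WT, above Hbb-bh1. Hbb-y thus stood below Hbb-b1 in the earlier order and at the top of the later one.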

How the data were processed

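Libraries made from total heart RNA by a low-input full-length method (Smart-seq2 in the study's methods, a SMARTer kit in the labels) were sequenced by the authors, with 2 biological replicates in each of 4 groups. The deposited table holds FPKM per gene; the study's methods and the submitters' processing notes name BWA and mm9, whereas 91.7% of 9513 tested genes start within 1000 bp of their GRCm38 position, so positions were read as GRCm38. The program that made the FPKM, its annotation and its handling of reads that fit several genes are not given in the sources used here. A pair of sequencing providers is named without saying which libraries each sequenced, and the labels give no batch.

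Groups came from the labels. Of entries sharing a symbol (285 symbols), the one with the highest mean was used. Genes averaging 1 FPKM or more over the 8 libraries (10018) were kept, and log2(FPKM + 1) was fitted with limma 3.58.1 in R 4.3.3: 4 groups in 1 model, variance trend, two-sided tests, Benjamini-Hochberg adjustment over all genes. A gene was called at adjusted p under 0.05 and at least 1.5-fold. limma's p-values set each change against a spread pooled over the 4 groups of 2 libraries and moderated over all genes. The code was tested on simulated data. Ratios within a library were not tested. Sequences came from RefSeq (GRCm38.p6) and GENCODE transcripts, by symbol. Figures were drawn with matplotlib 3.10.9.

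The members, gene lists and marker lists were chosen with earlier results of these data known. From each further list, called genes were named, at most 4 by size of change (with none called, the 2 with the largest E9.5 genotype change); the 5 genes with the highest Pearson r over 8 libraries were named for each of 2 patterns. Some genes that this rule names are not reported here. The alternatives were other pseudocounts (0.1 and 5), no filter on low values, 3 other scalings, no variance trend, the libraries of a comparison alone, a replicate block and leaving out each library. Summing entries at shared loci, a crossed replicate block, gene lists with each library left out, and correlations without 1 library were added after the data were seen. Equal replicate numbers did not mark pairs: the correlation of their deviations lay between -0.12 and 0.02.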

Additional observations from a re-analysis of the deposited data

How the results depend on the processing

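Counts of called genes among the 9 were 4 for the stage comparison in WT and 1 in cKO, and 0 in each of the other 3 comparisons, where they stayed at 0 under every alternative run. The counts for WT and cKO were 0 and 0 with either median-ratio or quantile scaling, 1 and 0 with no filter on low values, and 3 and 0 with the replicate block. A pseudocount of 5 gave 3 and 1, the WT call of Hbb-y being lost (adjusted p = 0.0511 from limma). Left-out libraries gave 0 to 5 calls in WT and 0 to 2 in cKO. The libraries were not shown to be paired by number. The crossed replicate block, chosen after the data were seen, gave 4 calls in WT. The adjusted p of Hbb-y under the replicate block was 0.0694 in WT and 0.0535 in cKO from limma. Of 775 values of single or summed genes under alternatives, 62 had the other sign, 0 of them among the 5 called values. Over all genes, calls higher and lower numbered 140 and 4683 in WT and 205 and 2857 in cKO. They numbered 321 and 69, and 400 and 77, with median-ratio scaling. Quantile normalization gave 88 and 27, and 258 and 49. With no filter they were 91 and 3273, and 90 and 1098, and in cKO with the libraries of the comparison alone 125 and 1393. The genotype comparison at E9.5 gave 17 calls in the direction of cKO and 1 in that of WT. Median-ratio scaling gave 54 and 2, quantile normalization 29 and 2, no filter 4 and 1, and limma on those libraries alone 0. In WT, the counts higher and lower were 4 and 28 without E8.5 WT replicate 1, 16 and 184 without E8.5 WT replicate 2, 10 and 48 without E9.5 WT replicate 1, and 85 and 2204 without E9.5 WT replicate 2. In cKO they were 1 and 0, and 1 and 1, without E9.5 cKO replicate 1 and 2, and 131 and 1595, and 134 and 1587, without an E8.5 WT library. Those higher in cKO were 417 without E8.5 cKO replicate 1 and 117 without E8.5 cKO replicate 2. The E9.5 genotype counts were 0 and 2 without E9.5 WT replicate 1, 4 and 6 without E9.5 WT replicate 2, 1 and 0, and 3 and 1, without an E9.5 cKO library, and 56 and 9, and 67 and 20, without an E8.5 cKO library. The all-gene counts of the E8.5 genotype comparison and of the interaction also changed with the library left out. The cause of these shifts was not tested.

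Sign changes under other settings were these, as log2 changes. With library-sum scaling Hba-a1 had -0.21 between stages in WT and Hba-a2 0.020 in the interaction. With a pseudocount of 0.1 Hbb-bs had 1.18 between stages in cKO. Under median-ratio scaling Alas2 had 0.22 between genotypes at E8.5 and Hbb-bh1 0.21 between stages in WT. In cKO, Hbb-bh1 (0.44), Hba-a1 (0.59), Hbb-bs (0.22) and Alas2 (0.44) did so between stages. Under quantile normalization Hba-x (-0.084), Hbb-bh1 (-0.50) and Alas2 (0.24) did between genotypes at E8.5, Hba-x (-0.30) and Hba-a1 (-0.63) between stages in WT, Hbb-bs (0.12) and Alas2 (0.45) between stages in cKO, and Hba-a1 (0.031) in the interaction.

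Leaving out 1 library at a time gave ranges that crossed 0 for these log2 values. Between genotypes at E8.5 they were -0.72 to 1.51 for Hba-x, -0.31 to 1.35 for Hbb-bh1, -2.58 to 1.58 for Hbb-y, -3.12 to 1.97 for Hbb-b1, -5.91 to 0.71 for Hbb-bs, -2.76 to 1.70 for Hbb-bt and -0.47 to 0.23 for Alas2. At E9.5 they were -0.043 to 0.85 for Hbb-y and -0.75 to 3.01 for Hbb-bs. Between stages in WT they were -0.34 to 1.03 for Hba-x, -1.62 to 0.035 for Hbb-bh1, -0.61 to 0.62 for Hba-a1 and -0.17 to 0.83 for Hba-a2. In cKO they were -0.21 to 2.02 for Hba-x, -1.11 to 0.47 for Hbb-bh1, -0.54 to 0.20 for Hba-a1, -4.72 to 0.36 for Hbb-b1, -3.61 to 3.01 for Hbb-bs and -3.63 to 0.84 for Hbb-bt. In the interaction they were -0.56 to 1.68 for Hba-x, -0.35 to 1.30 for Hbb-bh1, -1.18 to 2.99 for Hbb-y, -0.79 to 0.44 for Hba-a1 and -0.58 to 0.42 for Hba-a2. Ratios between genotypes at E8.5 ran from -2.31 to 0.27 for Hbb-y to Hbb-bh1, -1.03 to 1.94 for Hba-a to Hba-x and -4.40 to 2.27 for adult to embryonic beta. Between stages in cKO the last 2 ran from -2.55 to 0.42 and from -6.10 to 0.57. A group left with 1 library is assumed to vary like the others. Depth is unknown, so no counting error can be given.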
